A study of Mus musculus with 15 samples.

Results

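Heat shock chaperones are described here as a set of 10 genes, Hspa1a, Hspa1b, Hspa8, Hsph1, Dnajb1, Bag3, Hsp90aa1, Hsp90ab1, Hspd1 and Hspe1, in microglia sorted from the mouse forebrain after stroke. The genes were found by their exact symbol, and 10 of 10 were listed in all 3 deposited tables, which hold the same 24421 genes. The set was selected on measured values of these samples, among them the Hspa1a difference between EGFP+ and EGFP− cells, and which other values entered the choice is not recorded, so counts over the 10 genes are descriptions and lend no independent support to a direction. Transcripts were counted by bulk RNA sequencing in 15 libraries of cells sorted for intermediate CD45 and CD11b from male mice of 8 to 24 weeks.

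All mice except the sham group had the middle cerebral artery blocked for 60 minutes and then reopened, and sham mice had the surgery without the block. Wild-type C57BL/6J mice gave 1 library each from sham surgery and from days 1, 6, 14 and 28. Igf1-Egfp transgenic mice, in which EGFP reports on the growth factor gene Igf1, gave 1 EGFP+ and 1 EGFP− library for each of days 6 and 14. A set of 3 Cx3cr1-CreER;Yy1flox/flox libraries was compared with 3 Yy1flox/flox libraries, all taken 6 days after stroke. CreER is driven by Cx3cr1, a gene of microglia and other mononuclear phagocytes, and the Yy1flox/flox mice are not labelled as carrying Cre, so an effect of CreER and one of the Yy1 deletion cannot be told apart. The labels call the 3 libraries per genotype biological replicates and do not say how many mice went into any library.

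Heat shock chaperones bind unfolded stretches of other proteins and help them to fold, to be held or to be broken down. HSP70 proteins work in cycles of ATP use in which a J-domain protein delivers the client and starts ATP breakdown and a nucleotide exchange factor releases it, while HSP90 matures kinases and steroid receptors, and the HSP60 and HSP10 proteins form the folding chamber of mitochondria. Under stress the transcription factor HSF1 binds repeats of GAA and TTC, called heat shock elements, upstream of these genes, and in microglia they are known to respond to the isolation of the cells as well as to injury.

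Promoters are shown where the window held a heat shock element motif, for the close copies Hspa1a and Hspa1b, for Hsph1 and for Hspe1, whose window covers the motifs of its neighbour Hspd1. Windows of 250 bases before the RefSeq transcription start (GRCm38.p6) were found for 7 of the 10 genes, and Hsp90aa1, Hsp90ab1 and Hspa8 were not matched. They are written 5′ to 3′ on the gene's own strand, with capitals for GAANNTTC, TTCNNGAA or an overlapping run of both.
Hspa1a, chr17:34972157-34972406 (minus strand): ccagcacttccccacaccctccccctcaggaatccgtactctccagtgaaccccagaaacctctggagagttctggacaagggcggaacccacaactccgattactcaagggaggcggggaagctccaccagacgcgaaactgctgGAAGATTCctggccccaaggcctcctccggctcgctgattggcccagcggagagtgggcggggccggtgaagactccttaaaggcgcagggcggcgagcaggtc
Hspa1b, chr17:34959239-34959488 (minus strand): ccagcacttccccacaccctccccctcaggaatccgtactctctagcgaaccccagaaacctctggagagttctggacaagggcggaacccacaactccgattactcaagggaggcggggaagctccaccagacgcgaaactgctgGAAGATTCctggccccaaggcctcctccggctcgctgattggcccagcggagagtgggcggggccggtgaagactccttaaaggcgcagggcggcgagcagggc
Hsph1, chr5:149636337-149636586 (minus strand): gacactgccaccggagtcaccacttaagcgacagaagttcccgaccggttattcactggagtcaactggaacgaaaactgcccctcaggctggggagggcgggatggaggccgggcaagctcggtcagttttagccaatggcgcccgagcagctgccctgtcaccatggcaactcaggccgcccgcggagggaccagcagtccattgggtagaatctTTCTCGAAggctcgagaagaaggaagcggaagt
Hspe1, chr1:55087898-55088147 (plus strand): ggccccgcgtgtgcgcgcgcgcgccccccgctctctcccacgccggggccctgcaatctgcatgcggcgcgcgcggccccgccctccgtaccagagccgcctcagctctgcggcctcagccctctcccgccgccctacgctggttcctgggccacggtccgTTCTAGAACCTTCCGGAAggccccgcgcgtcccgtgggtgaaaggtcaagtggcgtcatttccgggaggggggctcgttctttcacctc
The Hspa1a and Hspa1b windows were 98.8% identical over 250 bases, with the substitutions C44T, T47C and T249G from Hspa1a to Hspa1b, counted from the 5′ end of the window. Both held GAAGATTC at position 147, which is 104 bases before the start. GAANNTTC (the same on both strands) was found in 4 of the 7 genes, Hspa1a, Hspa1b, Hspd1 and Hspe1, and in 6.69% of all 32851 promoter windows of this length. TTCNNGAA (also the same on both strands) was found in 3 of the 7 genes, Hspd1, Hspe1 and Hsph1, and in 7.17% of all windows. The 7 genes have 10 windows and were counted by gene, while the shares count single windows, so the measures are not alike. Hspa1a and Hspa1b are close copies and Hspd1 and Hspe1 share their matches, so these genes are not separate finds. The Hspe1 run holds both motifs in overlap as 1 run of alternating units, GAANNTTC followed by a further GAA or its reverse complement, found in 0.466% of windows, and the Hspd1 window on the other strand covers the same run. The Dnajb1 and Bag3 windows held neither of these letter patterns and are not shown. These matches are descriptions of the letters and no factor binding was measured.

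Total counts ran from 16786830 to 52618224 in the table of the time course and the day 6 EGFP cells, from 23105218 to 24554968 in the day 14 EGFP table and from 10528327 to 13936065 in the Yy1 table. Levels are given as CPM (counts per 1e6 counts of the library) after TMM scaling, and levels are not set across tables. Within the time-course table the wild-type day 14 and day 28 libraries stood apart, with 11823 and 9886 genes with a count against 16009 in sham. Of the 6307 genes of at least 20 CPM in sham, 0.618% and 3.08% were listed at 0 there. Genes with a count numbered 13331 in EGFP+ and 15634 in EGFP− cells on day 6, and 12498 in EGFP+ and 10892 in EGFP− cells on day 14. Microglial markers, 11 genes such as P2ry12 and Tmem119, were above 0 in every library. They summed to between 9047 CPM (wild-type day 1) and 35838 CPM (sham) in the time-course table. The sums were 47896 and 49522 CPM in the day 14 EGFP table and 15350 to 26774 CPM in the Yy1 table. Igf1 stood at 813 CPM in EGFP+ and 49.5 CPM in EGFP− cells on day 6, and at 33.5 CPM in EGFP+ and 11.1 CPM in EGFP− cells on day 14. Yy1 had 32.4, 28.8 and 38.7 CPM in Cx3cr1-CreER;Yy1flox/flox libraries, against 75.9, 51.0 and 57.8 CPM in Yy1flox/flox libraries, with no overlap but an edgeR adjusted p of 0.128, and reads outside the deleted part would not show the deletion. In bulk samples, fewer cells of a type and less RNA per cell cannot be told apart.

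Per kilobase of exon, the constitutive genes were the most abundant. In the 7 libraries of the time-course table the median level was 305 CPM per kb for Hsp90ab1 and 282 CPM per kb for Hspa8. It was 189 CPM per kb for Hsp90aa1, 103 for Hspa1b, 95.7 for Hspa1a, 40.8 for Dnajb1, 39.6 for Hspd1, 24.2 for Hspe1, 12.9 for Bag3 and 8.87 for Hsph1. The ranges over those libraries overlapped between neighbours in this order, from 21.8 to 321 CPM per kb for Hspa1a and from 9.95 to 365 CPM per kb for Hspa1b, so the order holds for medians only. The 10 genes together took 0.245% to 0.757% of the counts of a library.

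The wild-type series asks how the chaperones stand at each stage after stroke. They were mostly somewhat higher on day 1 (8 of 10 above sham), mostly somewhat lower on day 6 (9 of 10 below sham) and highest on day 28, where 7 of the 10 had their top value. Shares of all genes for these counts were not computed. On day 28, 27.0% of all genes with at least 20 CPM in 1 of the libraries reached a log2 ratio of 1 above sham, and 24.0% reached it below sham. No gene of the set reached a 4-fold difference from sham on day 1 or day 6, and 1 each did on day 14 and day 28, in both cases a mitochondrial chaperone gene that stood far below sham. With 1 library per time point no test was possible, and no value below can be set against a spread between mice.

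Among the HSP70 genes, Hspa1a, which encodes a stress-inducible HSP70, stood at 284 CPM in sham and at 375, 164, 277 and 953 CPM on days 1, 6, 14 and 28. Hspa1b, which encodes nearly the same protein, stood at 290 CPM in sham and at 315, 132, 119 and 1022 CPM on the same days. Both genes were lowest in the middle of the series and 3.36-fold and 3.53-fold above sham on day 28 (95% counting intervals 3.29 to 3.43 and 3.46 to 3.60, which cover counting error only). Hspa8, the constitutive HSP70 of the cytosol, which also uncoats clathrin vesicles, stood at 1211 CPM in sham and at 1644, 959, 902 and 1657 CPM on days 1, 6, 14 and 28. Its highest value was 1.84-fold its lowest, against 8.57-fold for Hspa1b and 5.81-fold for Hspa1a.

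Of the partners of HSP70, Dnajb1, a J-domain protein that starts ATP breakdown by HSP70, stood at 147 CPM in sham and at 86.4, 131, 174 and 438 CPM on days 1, 6, 14 and 28. It was the gene of the set furthest below sham on day 1, with a log2 ratio of -0.76. Hsph1, an HSP110 protein that releases nucleotide from HSP70, stood at 64.5 CPM in sham and at 105, 47.8, 44.5 and 123 CPM on those days. Bag3, a co-chaperone that links HSP70 to small heat shock proteins and autophagy, stood at 33.2 CPM in sham and at 54.6, 28.5, 61.3 and 31.4 CPM. Bag3 was thus highest on day 14 and close to sham on day 28, unlike Hsph1 and Dnajb1, which were highest on day 28.

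The HSP90 genes differed from each other in range. Hsp90aa1, the inducible HSP90, stood at 741 CPM in sham and at 907, 433, 584 and 2274 CPM on days 1, 6, 14 and 28. Hsp90ab1, the constitutive HSP90, stood at 734 CPM in sham and at 1234, 680, 671 and 935 CPM. The highest value was 5.25-fold the lowest for Hsp90aa1 and 1.84-fold for Hsp90ab1. Without the day 14 and day 28 libraries the fold was 2.09 for Hsp90aa1 and 1.81 for Hsp90ab1.

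The mitochondrial pair went apart in the late libraries. Hspd1, the HSP60 subunit, stood at 80.3 CPM in sham and at 177, 77.4, 110 and 11.1 CPM on days 1, 6, 14 and 28. Hspe1, the HSP10 lid of the same chamber, stood at 35.3 CPM in sham and at 30.9, 35.7, 3.05 and 104 CPM. Hspd1 was low on day 28 only (252 counts, log2 ratio to sham -2.75) and Hspe1 on day 14 only (56 counts, log2 ratio -3.17). The ratio of Hspd1 to Hspe1 was 36.1 on day 14 and 0.106 on day 28, while it lay between 1.86 and 5.71 in the other 13 libraries of the series. The genes lie head to head on chromosome 1 (Hspd1 at 55077835 to 55088243 on the minus strand, Hspe1 at 55088132 to 55091307 on the plus strand, GRCm38) and overlap by 112 bases, and whether counting used the strand is not given in the sources used here. These values sit in the libraries with the fewest genes detected in the time-course table. The day 14 EGFP− library, with 10892 genes with a count, had a ratio of 2.72. The part of low detection in these values was not tested.

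**Figure D1:**
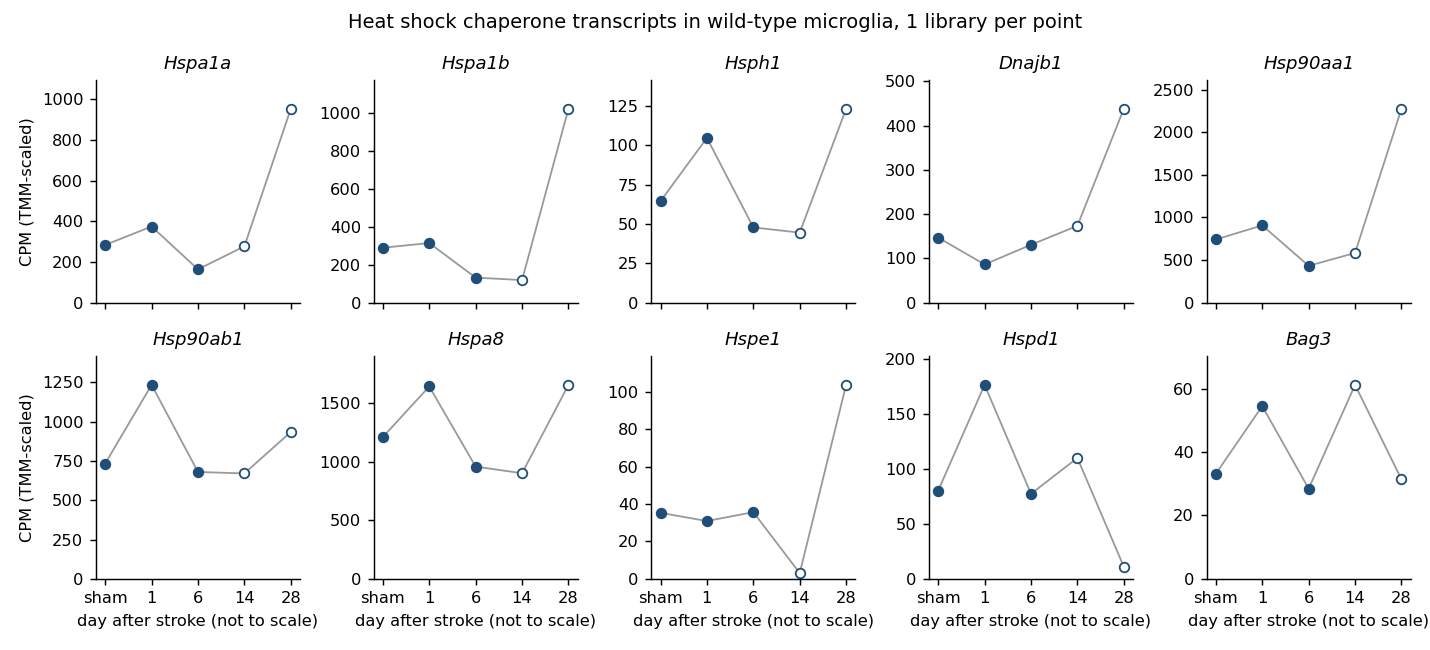
CPM after TMM scaling (vertical axes, each from 0) of the 10 genes in wild-type microglia after sham surgery and on days 1, 6, 14 and 28 (horizontal axes), 1 library per point, with open points for the day 14 and day 28 libraries that had few genes detected. Hspa1a, Hspa1b, Dnajb1 and Hsp90aa1 are highest on day 28, while Hspd1 stands at 11.1 CPM on day 28 and Hspe1 at 3.05 CPM on day 14.

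By the size rule used for these comparisons (an absolute log2 ratio of 2 with at least 20 CPM in 1 of the libraries), 0 of 10 genes were past it on day 1, against 7.59% of all genes considered. On day 6 it was 0 of 10, against 6.33% of all genes. On day 14 it was 1 of 10, against 19.7%, and on day 28 again 1 of 10, against 26.3%. With a minimum of 50 CPM the day 14 count was 0 of 10, against 15.4%. At a log2 ratio of 1 on day 28, 5 of 10 genes were higher (Hspa1a, Hspa1b, Dnajb1, Hsp90aa1 and Hspe1), against 27.0% of all genes, and 1 was lower (Hspd1), against 24.0%. At the same ratio 1 was higher on day 1 (Hspd1), against 12.5% of all genes, 1 was lower on day 6 (Hspa1b), against 2.90%, and 2 were lower on day 14 (Hspa1b and Hspe1), against 20.2%. For days 1, 6, 14 and 28 the median log2 ratio of the 10 genes was 0.42, -0.28, -0.24 and 1.23, beside 0.08, -0.02, -0.13 and -0.49 over all 12416 genes that reached 5 CPM somewhere in the table. All 4 comparisons share the sham library. On day 14 Hspa1a was below sham by 0.03 on the log2 scale but above it by 0.14 with RLE scaling, which shifts all genes there by 0.17, and by 0.08 with total counts. Hsp90ab1 on day 14, Bag3 on day 28 and Hspd1 on day 6 also lay within 0.13 of sham and changed sign with one of those scalings.

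Markers of other cells were past the size rule at every stage after stroke. On day 1, 8 of 10 neutrophil markers were higher (summed level 2399 CPM on day 1 and 705 CPM in sham), as were 5 of 8 monocyte markers (1608 and 61.7 CPM), while 7 of 11 microglial markers were lower. On day 6, 10 of 11 endothelial and mural markers were higher (3211 CPM on day 6 and 261 CPM in sham), as were 4 neutrophil and 2 monocyte markers. No marker of these lists was at 0 in either library. On day 14 all 11 endothelial and mural markers were higher (5733 CPM on day 14 and 261 CPM in sham) and 5 of 11 microglial markers lower. On day 28, 7 of 8 monocyte markers were higher (2016 CPM on day 28 and 61.7 CPM in sham, with no marker at 0 in either), as were 5 of 10 neutrophil markers (2890 and 705 CPM, with Cxcr2 at 0 on day 28) and 5 of 7 dendritic cell markers (601 and 17.5 CPM, with Xcr1 at 0 on day 28 and Ccr7 in sham), and 5 of 11 endothelial and mural markers were lower (31.1 and 261 CPM, with Sele at 0 on day 28). Of 25 immediate early genes, which respond within minutes to handling and to stimulation, 3, 1, 7 and 6 were past the rule higher on days 1, 6, 14 and 28 and 0 lower, among them on day 28 the orphan receptor genes Nr4a2 (log2 ratio 4.32) and Nr4a1 (3.82). The part of these genes in the chaperone levels was not tested.

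The reporter comparison asks how cells with Igf1 reporter activity differ from cells without it. On day 6 the inducible HSP70 genes were far lower in EGFP+ than in EGFP− cells. Hspa1a stood at 64.6 CPM in EGFP+ and 450 CPM in EGFP− cells, a log2 ratio of -2.78. Hspa1b stood at 27.9 CPM in EGFP+ and 374 CPM in EGFP− cells, a log2 ratio of -3.70. The EGFP+ values were the lowest of both genes in the 7 libraries of the table, below the sham values as well. These EGFP comparisons are among those known when the genes were chosen, with 1 library per state and day, so they are descriptions.

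The other members had smaller ratios on day 6, in both directions. Dnajb1 stood at 42.5 CPM in EGFP+ and 96.0 CPM in EGFP− cells (log2 ratio -1.16), and Hsph1 at 31.3 CPM in EGFP+ and 68.4 CPM in EGFP− cells (-1.10). Hsp90aa1 stood at 463 CPM in EGFP+ and 823 CPM in EGFP− cells (-0.83), and Hspa8 at 1011 CPM in EGFP+ and 1484 CPM in EGFP− cells (-0.55). The constitutive Hsp90ab1 stood at 947 CPM in EGFP+ and 915 CPM in EGFP− cells, and its log2 ratio of 0.05 became -0.01 with total-count scaling. Hspd1 stood at 130 CPM in EGFP+ and 105 CPM in EGFP− cells, Hspe1 at 48.3 CPM in EGFP+ and 56.1 CPM in EGFP− cells, and Bag3 at 37.4 CPM in EGFP+ and 24.7 CPM in EGFP− cells. Hsp90ab1, Hspd1 and Bag3 were thus above EGFP− and the other genes of the set below it.

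On day 14, in a separate table from another sequencer, the inducible HSP70 genes were again lower in EGFP+ cells, by less. Hspa1a stood at 267 CPM in EGFP+ and 552 CPM in EGFP− cells (log2 ratio -1.05), and Hspa1b at 218 CPM in EGFP+ and 428 CPM in EGFP− cells (-0.97). Hspa8 stood at 1532 CPM in EGFP+ and 2175 CPM in EGFP− cells (-0.51), close to its day 6 ratio. Hsph1 had the opposite sign, with 30.5 CPM in EGFP+ and 12.6 CPM in EGFP− cells (1.22). Dnajb1 stood at 215 CPM in EGFP+ and 285 CPM in EGFP− cells (-0.41), and Hsp90aa1 at 131 CPM in EGFP+ and 141 CPM in EGFP− cells (-0.11). Hsp90ab1 stood at 790 CPM in EGFP+ and 713 CPM in EGFP− cells (0.15), and Bag3 at 35.2 CPM in EGFP+ and 21.1 CPM in EGFP− cells (0.72). Hspd1 stood at 97.3 CPM in EGFP+ and 97.5 CPM in EGFP− cells (0.00), and Hspe1 at 28.9 CPM in EGFP+ and 35.8 CPM in EGFP− cells (-0.30).

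**Figure D2:**
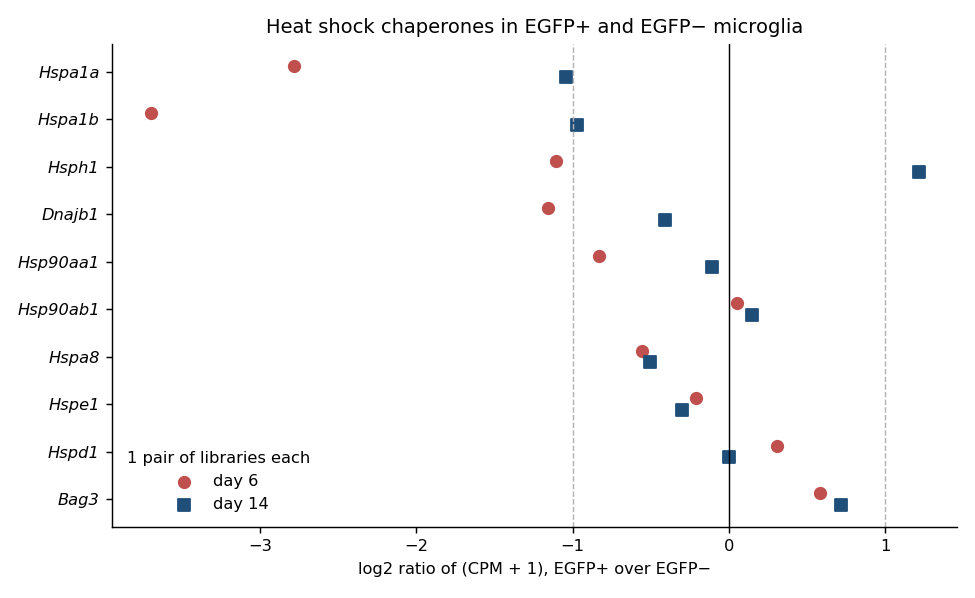
Log2 ratio of CPM plus 1, EGFP+ over EGFP− cells (horizontal axis), of the 10 genes (vertical axis) on day 6 (circles) and day 14 (squares), 1 pair of libraries each, with dashed lines at log2 ratios of -1 and 1. Hspa1a and Hspa1b lie furthest to the left on day 6, at -2.78 and -3.70, and Hsph1 is left of 0 on day 6 and right of it on day 14.

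Between EGFP states the size rule was an absolute log2 ratio of 1 with at least 20 CPM in 1 of the libraries. On day 6, 4 of 10 genes were past it, all lower in EGFP+ cells, against 19.4% of all genes in either direction and 11.9% lower. On day 14, 2 of 10 were past it, Hspa1a lower and Hsph1 higher, against 22.1% of all genes, 10.9% lower and 11.2% higher. At a log2 ratio of 2, 2 of 10 were past it on day 6, Hspa1a and Hspa1b, against 4.81% of all genes, and 0 of 10 on day 14, against 6.49%. With a minimum of 50 CPM, 1 of 10 was past the rule on day 14, against 16.1%. Hspa1a, Hspa1b, Dnajb1, Hsp90aa1, Hspa8 and Hspe1 were below EGFP− on both days. Hsp90ab1 and Bag3 were above it on both, with the day 6 sign of Hsp90ab1 turning under total-count scaling. Hsph1 changed sign, and Hspd1 was level on day 14 (log2 ratio -0.0017). Shares of all genes with these patterns were not computed. The median log2 ratio of the 10 genes was -0.69 on day 6 and -0.20 on day 14, beside -0.08 over 12416 and 0.04 over 9921 genes that reached 5 CPM somewhere in the table of that day.

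Immediate early genes were mostly lower in EGFP+ cells on day 6, as were 4 of the 10 chaperone genes by the same rule. Of 25, 19 were past the size rule lower and 0 higher, with a list median of -1.51. Nr4a1 stood at 37.1 CPM in EGFP+ and 237 CPM in EGFP− cells, and Ier2, a growth-factor-induced nuclear gene, at 60.1 CPM in EGFP+ and 254 CPM in EGFP− cells. On day 14, 5 were lower and 1 higher. Neutrophil markers were lower in EGFP+ cells on day 6 for 9 of 10 genes, summing to 439 CPM in EGFP+ and 11927 CPM in EGFP− cells and Retnlg at 0 in EGFP+ cells, as were 6 of 8 monocyte markers, with sums of 1510 CPM in EGFP+ and 5049 CPM in EGFP− cells and no marker at 0 in either, and 4 of 7 dendritic cell markers, with sums of 132 CPM in EGFP+ and 617 CPM in EGFP− cells. Markers of border-associated macrophages were past the rule higher in EGFP+ cells for 3 of 7 genes (Pf4 3.74, Ms4a7 3.03 and Folr2 2.62), with sums of 281 CPM in EGFP+ and 79.4 CPM in EGFP− cells. On day 14 neutrophil markers went the other way, with 5 of 10 past the rule higher, sums of 2131 CPM in EGFP+ and 1241 CPM in EGFP− cells, and 8 of the 10 at 0 in EGFP− cells, S100a8 and S100a9 among them. Csf3r alone stood at 1223 CPM in EGFP+ and 1241 CPM in EGFP− cells on day 14, and at 284 CPM in EGFP+ and 414 CPM in EGFP− cells on day 6. Endothelial and mural markers were past it higher for 6 of 11 genes on day 14, with sums of 393 CPM in EGFP+ and 30.7 CPM in EGFP− cells and 8 of the 11 at 0 in EGFP− cells. The part of these cells in the chaperone ratios was not tested.

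The Yy1 comparison asks what differs on day 6 between Cx3cr1-CreER;Yy1flox/flox and Yy1flox/flox microglia, where YY1 is a zinc finger factor that binds promoters and enhancers. Transcripts of the inducible HSP70 genes, of Hsph1 and of the constitutive Hspa8 rose in Cx3cr1-CreER;Yy1flox/flox libraries, while no gene of the set fell. By edgeR the other 6, Dnajb1, Bag3, Hsp90aa1, Hsp90ab1, Hspd1 and Hspe1, did not pass the test. This is the only comparison with replicates, and its values may have been known when the genes were chosen.

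Hspa1b had 522, 273 and 595 CPM in Cx3cr1-CreER;Yy1flox/flox libraries 1 to 3, against 77.4, 87.0 and 159 CPM in Yy1flox/flox libraries. Every library of the first genotype was above every library of the second, with a log2 fold change of 2.10 ± 0.28 (SE) and an edgeR quasi-likelihood adjusted p of 4.9e-04. Hspa1a had 500, 290 and 524 CPM in Cx3cr1-CreER;Yy1flox/flox libraries, against 181, 156 and 285 CPM in Yy1flox/flox libraries, where the lowest of the first set, library 2, was just above the highest of the second. Its log2 fold change was 1.08 ± 0.23 (SE), with an edgeR adjusted p of 0.0166. The call of Hspa1a was lost without Cx3cr1-CreER;Yy1flox/flox library 1 (edgeR adjusted p = 0.0880) or 3 (0.0826) and without Yy1flox/flox library 1 (0.193) or 2 (0.116), with log2 fold changes of 0.91 to 1.39 over the 6 fits that each left out 1 library. Hspa1b kept its call in all 6 of those fits.

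Hsph1 had 206, 67.0 and 152 CPM in Cx3cr1-CreER;Yy1flox/flox libraries, against 35.6, 50.9 and 22.2 CPM in Yy1flox/flox libraries. The libraries were widely spread within each genotype and did not overlap between them. Its log2 fold change of 1.97 ± 0.36 (SE) had an edgeR adjusted p of 0.00485, with the call lost only without Yy1flox/flox library 1 (0.0851). Hspa8 had 1343, 939 and 1157 CPM in Cx3cr1-CreER;Yy1flox/flox libraries, against 776, 721 and 747 CPM in Yy1flox/flox libraries. The Yy1flox/flox values lay close together and all below the others, and the difference of 0.62 ± 0.13 (log2, SE) had an edgeR adjusted p of 0.0169. The Hspa8 call held without Cx3cr1-CreER;Yy1flox/flox library 2 (edgeR adjusted p = 0.00330) and was lost without any other single library, with adjusted p between 0.0639 and 0.104.

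Dnajb1 had 216, 207 and 183 CPM in Cx3cr1-CreER;Yy1flox/flox libraries, against 116, 113 and 178 CPM in Yy1flox/flox libraries, without overlap (log2 fold change 0.58 ± 0.20 SE, edgeR adjusted p = 0.153). Hsp90ab1 had 842, 598 and 598 CPM in Cx3cr1-CreER;Yy1flox/flox libraries, against 459, 471 and 519 CPM in Yy1flox/flox libraries, also without overlap (0.50 ± 0.15 SE, edgeR adjusted p = 0.0981). Neither passed the threshold of 0.05 by edgeR with its filter on low counts. Hsp90ab1 passed by DESeq2 (adjusted p = 0.0131), by limma-voom (0.0375) and by edgeR without that filter (0.0337), but in none of the 6 fits that left out 1 library. Without Yy1flox/flox library 3, whose 178 CPM was nearest to the other genotype, Dnajb1 passed (edgeR adjusted p = 0.0447). Hsp90aa1 had 892, 481 and 772 CPM in Cx3cr1-CreER;Yy1flox/flox libraries, against 616, 616 and 682 CPM in Yy1flox/flox libraries, and the groups overlapped (0.17, edgeR adjusted p = 0.786).

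Hspd1 had 128, 100 and 154 CPM in Cx3cr1-CreER;Yy1flox/flox libraries, against 118, 97.7 and 109 CPM in Yy1flox/flox libraries (log2 fold change 0.24, edgeR adjusted p = 0.714). Hspe1 had 40.9, 25.2 and 55.4 CPM in Cx3cr1-CreER;Yy1flox/flox libraries, against 23.0, 26.0 and 35.3 CPM in Yy1flox/flox libraries (0.53, edgeR adjusted p = 0.595). Bag3 had 31.6, 22.0 and 59.1 CPM in Cx3cr1-CreER;Yy1flox/flox libraries, against 26.4, 23.9 and 37.8 CPM in Yy1flox/flox libraries (0.35, edgeR adjusted p = 0.795). All 3 overlapped between genotypes. Cx3cr1-CreER;Yy1flox/flox library 2 was the lowest of its genotype for 9 of the 10 genes, though for Hsp90ab1 it was level with library 3 at the digits given, and Dnajb1 was lowest in library 3.

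**Figure D3:**
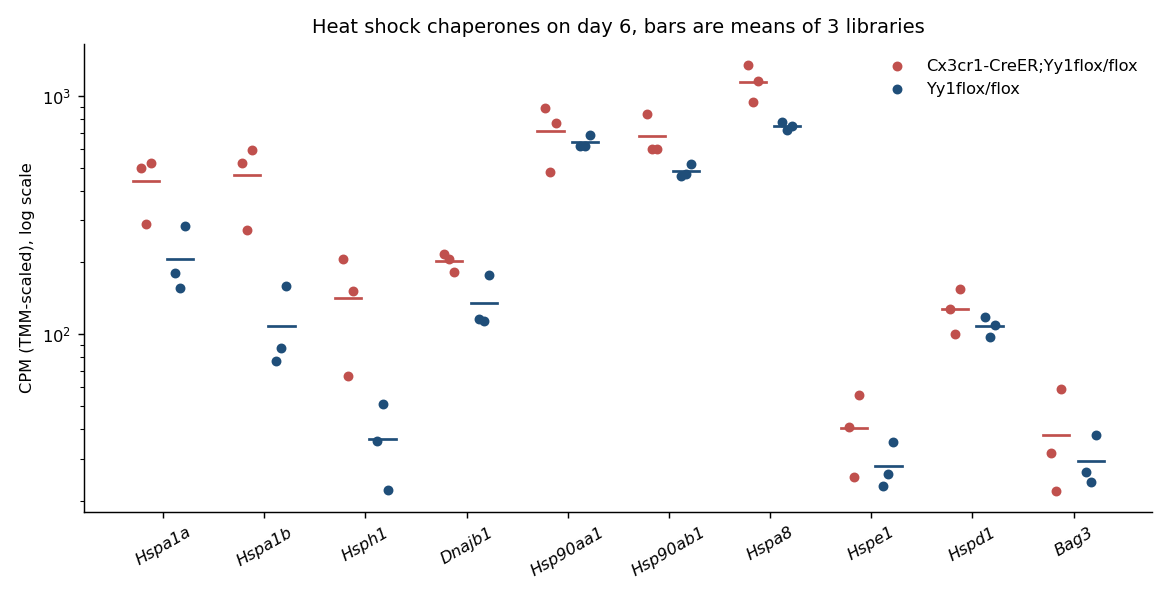
CPM after TMM scaling (vertical axis, log scale) of the 10 genes (horizontal axis) in day 6 microglia of Cx3cr1-CreER;Yy1flox/flox mice (left of each pair) and Yy1flox/flox mice (right), with 1 point per library and bars at the means of 3. Hspa1a, Hspa1b, Hsph1, Dnajb1, Hsp90ab1 and Hspa8 do not overlap between genotypes, and the middle of the Cx3cr1-CreER;Yy1flox/flox points, library 2, is the low one for most genes.

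Of the 10 genes, 4 passed the test higher and 0 lower in Cx3cr1-CreER;Yy1flox/flox libraries, against 2.60% of all 12387 genes tested in either direction and 1.55% higher. Without overlap between genotypes were 6 of 10, all higher, against 9.47% of all genes. The median log2 fold change of the 10 genes was 0.55, beside -0.02 over all genes tested. Without Yy1flox/flox library 1 the count of the set was 1 of 10, and it was 2 of 10 without Yy1flox/flox library 2 or without Cx3cr1-CreER;Yy1flox/flox library 1 or 3. Over all genes, 192 rose and 130 fell, and the split was 127 higher and 193 lower with total-count scaling, under which 3 of the 10 chaperone genes still passed, all higher. Without Yy1flox/flox library 1 the count over all genes was 97 instead of 322, and without library 2 of that genotype 165.

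The copies Hspa1a and Hspa1b share most of their sequence, so the split of reads between them is uncertain. They lie on the minus strand of chromosome 17 (Hspa1a at 34969190 to 34972156, Hspa1b at 34956436 to 34959238, GRCm38), 9951 bases apart. Their coding sequences were 99.43% identical, with 8 mismatches, and the longest identical run was 638 bases, while the sequence after the stop codon was 47.31% identical. Reads in the coding part can therefore fit both copies, and how such reads were counted is not given in the sources used here. Summed, the copies had a log2 fold change of 1.52 in the Yy1 comparison, with an edgeR adjusted p of 0.00178.

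Hspa1b made up 51.1%, 48.5% and 53.2% of the counts of both copies in Cx3cr1-CreER;Yy1flox/flox libraries, against 29.9%, 35.8% and 35.8% in Yy1flox/flox libraries. The mean was 50.9% ± 2.34 in Cx3cr1-CreER;Yy1flox/flox and 33.9% ± 3.39 in Yy1flox/flox libraries (SD, n = 3 each), and the genotypes did not overlap. The exact permutation test (two-sided) gave p = 0.1, the smallest that 3 against 3 allows. On day 6 the share was 30.2% in EGFP+ and 45.4% in EGFP− cells, and on day 14 it was 44.9% in EGFP+ and 43.7% in EGFP− cells. In the wild-type series it was 50.5% after sham surgery and 45.7%, 44.6%, 30.1% and 51.7% on days 1, 6, 14 and 28. Within each table the libraries with the highest summed level of both copies, 1976 CPM on day 28 and 1119 CPM in Cx3cr1-CreER;Yy1flox/flox library 3, had the highest Hspa1b share, apart from the day 14 EGFP table, where the 2 libraries differed little in the share.

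**Figure D4:**
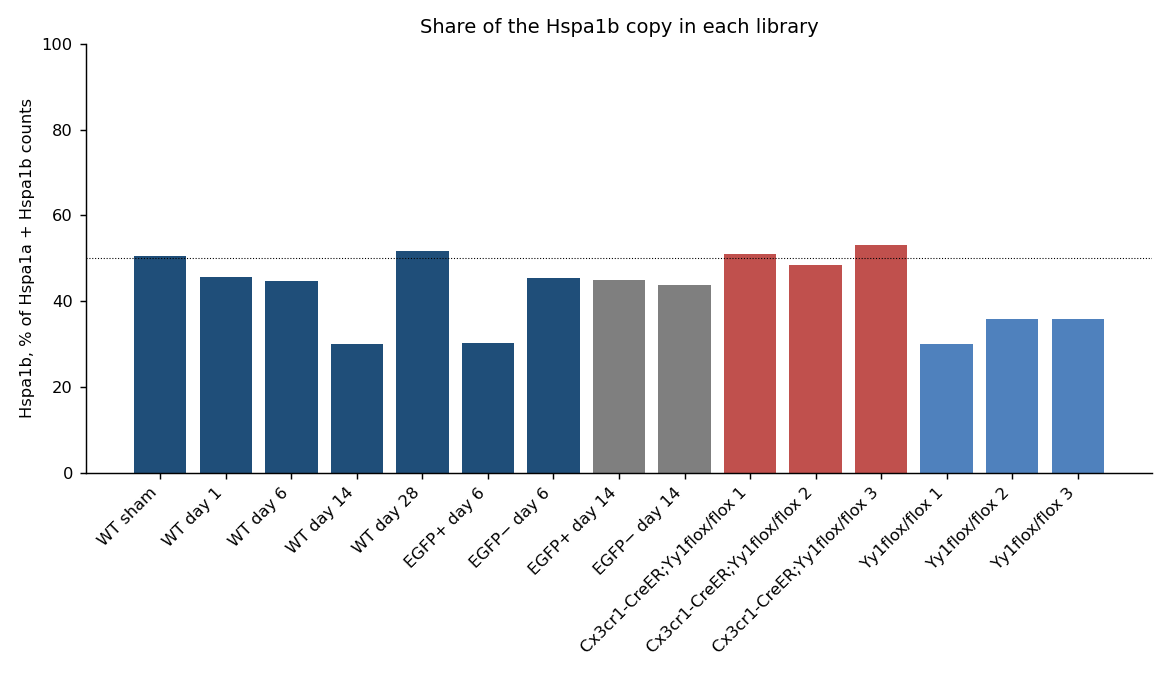
Share of Hspa1b in the summed counts of Hspa1a and Hspa1b (vertical axis, percent, from 0) in each of the 15 libraries (horizontal axis), with 1 bar per library, a dotted line at 50% and colours for the 3 tables, the Yy1 table split by genotype. The 3 Cx3cr1-CreER;Yy1flox/flox bars stand at 48.5% to 53.2%, above the Yy1flox/flox bars at 29.9% to 35.8%.

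Around the set, other chaperone lists moved little in the Yy1 comparison, apart from those of the endoplasmic reticulum (ER). Of 18 ER chaperone and unfolded protein response genes, 8 rose and 0 fell, with a list median of 0.48. Sdf2l1, an ER chaperone complex member, had 35.2, 55.2 and 48.0 CPM in Cx3cr1-CreER;Yy1flox/flox libraries, against 9.54, 17.7 and 17.6 CPM in Yy1flox/flox libraries (log2 fold change 1.63, edgeR adjusted p = 0.0258). The disulfide isomerase gene Pdia6 (1.10, adjusted p = 0.00601), the ER HSP110-type chaperone gene Hyou1 (1.01, 0.0106) and the disulfide isomerase gene Pdia4 (0.79, 0.0162) rose as well by edgeR. The ER count was 6 with total-count scaling and between 1 and 7 when 1 library was left out, with 1 without Yy1flox/flox library 1 and 3 each without Yy1flox/flox library 3 or Cx3cr1-CreER;Yy1flox/flox library 1, and 4 without Yy1flox/flox library 2.

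None of 4 heat shock factor genes, 16 other HSP70 proteins and co-factors, 16 other J-domain proteins, 5 tested small heat shock proteins, 14 chaperonin and prefoldin subunits or 11 genes of mitochondrial protein quality control passed the edgeR test. At an unadjusted edgeR p under 0.05 there were 1, 2, 2, 0, 0 and 2 of them in the same order, beside 1748 of all 12387 genes tested. DESeq2 called 0, 1, 0, 0, 0 and 0, and limma-voom called none. Hsf1, the main heat shock factor, averaged 28.4 ± 14.6 CPM in Cx3cr1-CreER;Yy1flox/flox and 31.7 ± 2.94 CPM in Yy1flox/flox libraries (SD, n = 3 each; edgeR adjusted p = 0.935). Of 14 HSP90 co-chaperones 1 fell, Fkbp5, which binds HSP90 in steroid receptor complexes, with a log2 fold change of -2.61 (edgeR adjusted p = 2.5e-06). Of 25 immediate early genes 2 rose (Nr4a1 2.14 and Fos 0.55) and 2 fell (Klf6 -0.70 and Klf4 -0.69) by edgeR. That count of 4 was 7 with DESeq2, 8 with limma-voom, 7 without a filter, 0 without Yy1flox/flox library 1 and 2 without Cx3cr1-CreER;Yy1flox/flox library 3.

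**Figure D5:**
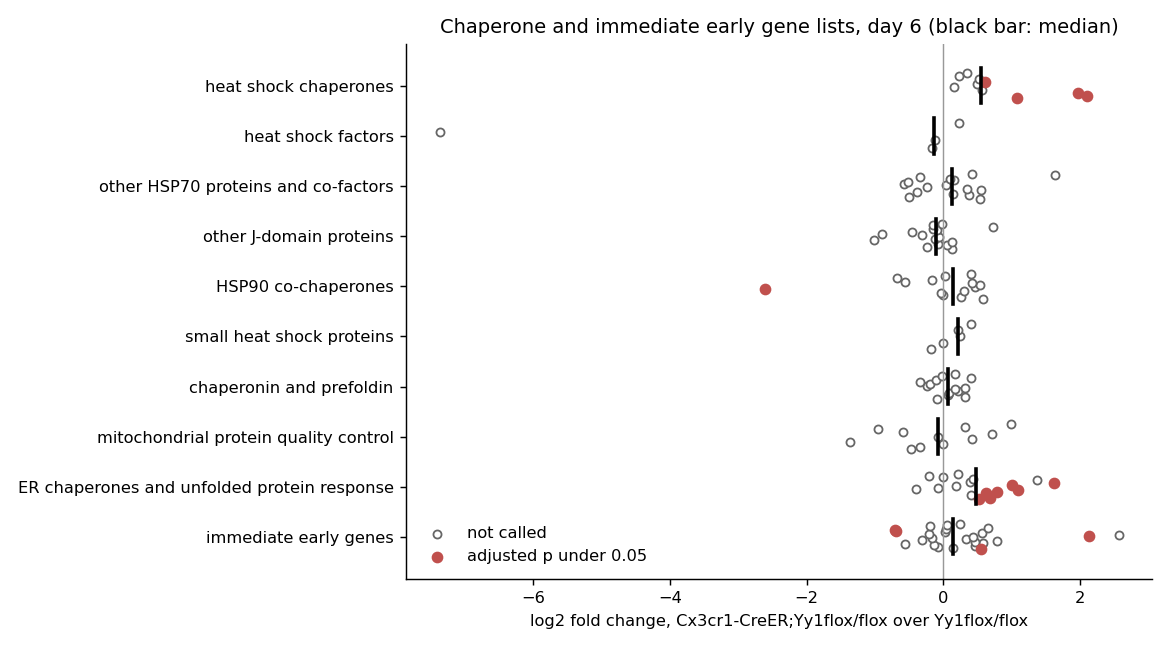
Log2 fold change on day 6, Cx3cr1-CreER;Yy1flox/flox over Yy1flox/flox (horizontal axis), of each tested gene in 10 lists (vertical axis), with filled points for genes with an edgeR adjusted p under 0.05 and black bars at list medians. Filled points right of 0 lie among the heat shock chaperones (4), the ER genes (8) and the immediate early genes (2), and the open point furthest from 0 is Hsf4, with no count in the Cx3cr1-CreER;Yy1flox/flox libraries and at most 1.99 CPM in the others.

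Cell markers differed between the genotypes too. All 11 microglial markers rose in Cx3cr1-CreER;Yy1flox/flox libraries, with sums of 24717 to 26774 CPM there and 15350 to 16557 CPM in Yy1flox/flox libraries and none at 0. Of 8 monocyte markers 2 fell, with sums of 619 to 741 CPM in Cx3cr1-CreER;Yy1flox/flox and 877 to 1272 CPM in Yy1flox/flox libraries. Of 9 tested neutrophil markers 1 rose, Csf3r, which microglia also express, and the sums were 1197 to 1507 CPM in Cx3cr1-CreER;Yy1flox/flox and 778 to 881 CPM in Yy1flox/flox libraries. Most of each sum was Csf3r, with 858, 969 and 1136 CPM in Cx3cr1-CreER;Yy1flox/flox libraries, against 557, 468 and 575 CPM in Yy1flox/flox libraries. None of the 8 tested endothelial and mural markers or of the 5 tested markers of border-associated macrophages passed by edgeR. At an unadjusted edgeR p under 0.05 were 2 and 1 of them, beside 1748 of all 12387 genes tested. Their sums were 381 to 514 CPM and 13.7 to 42.8 CPM in Cx3cr1-CreER;Yy1flox/flox libraries, against 516 to 788 CPM and 43.7 to 55.7 CPM in Yy1flox/flox libraries. Both kinds of sums thus missed an overlap between genotypes only narrowly. Genes with a count numbered 12222 to 13041 in Cx3cr1-CreER;Yy1flox/flox and 13865 to 14554 in Yy1flox/flox libraries. The part of these differences in the chaperone fold changes was not tested.

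The 8 lists of other chaperone genes, 100 genes in all, were also set against sham and between EGFP states by the same size rules. On day 1, 0 of the 76 genes with at least 20 CPM were past the rule, and on day 6 it was 1 of 74, the endothelial HSP70 relative Hspa12b (log2 ratio 2.68). On day 14, 4 of 78 were higher, Hspa12b (4.63), the small heat shock protein genes Hspb8 (3.51) and Hspb1 (2.41) and the prefoldin gene Pfdn4 (3.14), and 3 were lower, the mitochondrial co-chaperone gene Grpel2 (-4.54), Tomm34 (-3.17) and the HSP90 co-chaperone gene Fkbp4 (-2.01). These 8.97% compare with 19.7% of all genes that day. On day 28, 1 of 78 was higher, Pfdn4 (2.25), and 11 were lower, together 15.4% of the lists against 26.3% of all genes. The lower ones were the prefoldin gene Vbp1 (-4.84), the ER genes Creld2 (-4.82), Sdf2l1 (-4.68), Pdia4 (-2.46) and Dnajc3 (-2.36), the mitochondrial import gene Dnajc19 (-4.50), Cacybp (-4.27), Hsbp1 (-4.26), the J-domain genes Dnajb5 (-4.00) and Dnajb14 (-3.76) and the HSP70 co-factor gene St13 (-2.34). The median of the 18 ER genes on day 28 was -0.51, beside -0.49 over all genes.

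Between EGFP states, 3 of 71 genes of these lists were lower in EGFP+ cells on day 6, Herpud1 of the ER (-2.10) and the HSP70 relatives Hspa4l (-1.10) and Hspa14 (-1.06), and St13 was higher (1.04). These 5.63% compare with 19.4% of all genes. On day 14, 8 of 77 were lower, the HSP70 co-factor genes Bag1 (-2.87) and Bag5 (-1.31), the HSP90 co-chaperone genes Unc45a (-2.02), Cdc37l1 (-1.41) and Ppid (-1.03) and the J-domain genes Dnajb2 (-1.69), Dnaja4 (-1.56) and Dnajb4 (-1.08), and Hyou1 was higher (1.10). These 11.7% compare with 22.1% of all genes.

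The chaperone genes did not follow 1 profile over the 7 libraries of the time-course table. Pearson r of log2(CPM + 1), given as a description over libraries that differ in depth and genes detected, ran from -0.84 (Dnajb1 and Hspd1) to 0.97 (Hspa1a and Hspa1b) over 45 gene pairs, with a median of 0.36. Among Hspa1a, Hspa1b, Hsph1, Hsp90aa1 and Hspa8, a group picked after the values were seen, the 10 pairs had r of 0.74 to 0.97. Of the 9 pairs with Hspd1, 7 were negative. Outside the set, the genes most like Hspa1a were Zbtb21 (r = 0.976), Myd88 (0.973), H3f3b (0.972), Gripap1 (0.959) and Plagl2 (0.958), and 48 of 6725 genes were over 0.9. Those most like Hspd1 were Wdr36 (0.994), Tsr1 (0.992), Psmd2 (0.992), Stk3 (0.992) and Prep (0.990), with 626 genes over 0.9, and all 5 were lowest on day 28, as Hspd1 was.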

How the data were processed

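Ovation SoLo libraries were read on HiSeq or, for the day 14 reporter mice, NovaSeq instruments, per the labels' protocols. STAR, featureCounts, edgeR, mm10 and GRCm38 are named in the submitters' processing notes without versions or roles. The authors deposited whole read counts per gene for the time course with the day 6 reporter cells and for the day 14 reporter cells. Their Yy1 table was deposited without a stated unit and read here as a table of expected counts, because 3.55% to 4.75% of its values were not whole, and was rounded before testing. In the whole-count tables, 68.7% to 90.9% of the counts up to 20 were even, so counting intervals may be too narrow.

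The genes and lists were chosen with earlier results of these data known. Groups came from the sample titles. The Yy1 comparison used edgeR 4.0.16 in R 4.3.3, with filterByExpr, TMM, a quasi-likelihood F-test (two-sided, no replicate block) and Benjamini-Hochberg adjustment over all genes at 0.05. Its p-values set the genotype difference against the spread between libraries of a genotype, as modelled with information from all genes. Other comparisons have 1 library per group. They are log2 ratios of TMM-scaled CPM with 1 CPM added to both values, so changes of low genes come out too small. Alternatives were RLE and total-count scaling, no filter, DESeq2 1.42.0, limma-voom (limma 3.58.1), a replicate block, each library left out, summed Hspa1a and Hspa1b counts, 5 CPM added, other minimum levels and other size rules. A scaling without the day 14 and day 28 libraries was added after seeing the data. Named by rule were the 10 chaperone genes, up to 4 genes past the threshold per list and comparison, and the 5 genes most correlated with Hspa1a and with Hspd1, with other genes named after their values were seen. In simulated data made from the Yy1 table over 11923 genes, 100 genes were changed at each size. Of the 2-fold changes 36% and of the 4-fold changes 65% were recovered, with 7 false calls. These rates belong to that number of changed genes and need not hold for the real comparison. Promoters are RefSeq windows of GRCm38.p6, and gene positions are GENCODE models of GRCm38.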

Additional observations from a re-analysis of the deposited data

Results flagged for a closer look

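The log2 ratio of EGFP+ over EGFP− cells had opposite signs on the 2 days for Hsph1 and, through a day 14 value near 0, for Hspd1. Hsph1 was at -1.10 on day 6, with 31.3 CPM in EGFP+ and 68.4 CPM in EGFP− cells, and at 1.22 on day 14, with 30.5 CPM in EGFP+ and 12.6 CPM in EGFP− cells. Hspd1 was at 0.31 on day 6 and -0.0017 on day 14. Its day 14 levels were 97.3 CPM in EGFP+ and 97.5 CPM in EGFP− cells, so no reversal is shown for it. With 1 library per state and day the difference between days was not tested, and the days also differ in table and sequencer.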

How the results depend on the processing

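In the Yy1 comparison, 4 of 10 genes were called, 4 with RLE scaling or a replicate block, 3 with total counts or with the copies summed, 5 without a filter, with DESeq2 or with limma-voom, and between 1 and 4 when 1 library was left out. Hspa1b was called in 12 of 12 alternatives that list it (highest adjusted p 0.0189), Hsph1 in 12 of 13 (0.0851), Hspa1a in 9 of 13 (0.193) and Hspa8 in 7 of 13 (0.104). Dnajb1 was called in 1 of 13 and Hsp90ab1 in 3 of 13. With 1 library left out, the log2 fold change of Hsp90aa1 ran from -0.026 (without Cx3cr1-CreER;Yy1flox/flox library 1) to 0.385 and that of Bag3 from -0.13 (without library 3 of that genotype) to 0.625, and neither was called under any setting. Genes called over the whole table numbered 322, and 575 without a filter, 707 with DESeq2, 481 with limma-voom and 413 with the replicate block. The replicate numbers did not pair the samples (correlations of deviations -0.016, -0.098 and -0.00051 over 6700 genes), so the block is only an alternative.

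With a log2 ratio of 1 as the size rule, 1 gene of the set was higher on day 1, against 12.5% of all genes. On day 6, 1 was lower, against 2.90%, and on day 14, 2 were lower, against 20.2%. On day 28, 5 were higher, against 27.0% of all genes, and 1 was lower, against 24.0%. With a log2 ratio of 2 between EGFP states, 2 were past it on day 6, against 4.81% of all genes, and 0 on day 14, against 6.49%. With a minimum of 50 CPM, 0 were past it on day 14 against sham, against 15.4% of all genes, and 1 between EGFP states on day 14, against 16.1%. No gene of the set that was past a size rule changed sign under any alternative. The cause of these changes was not tested beyond the thresholds themselves. The lowest counts behind a member past a size rule left 95% counting intervals of 0.0649 to 0.112 of sham for Hspe1 on day 14 and 0.121 to 0.156 for Hspd1 on day 28, and the missing replicates limit every comparison but that of Yy1.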
